A study of Homo sapiens with 32 samples.

Results

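The 44 genes described here encode proteins of non-homologous and polymerase theta end joining (11 genes), base excision and single-strand break repair (15), nucleotide excision repair (8), mismatch repair (5), and translesion synthesis with direct reversal of alkylation (5). They were chosen by name from knowledge of these pathways, and all 44 were present among the 35587 gene symbols of the deposited expression matrix. Poly-A RNA was sequenced from U2OS cells, a human osteosarcoma line with wild-type p53, in 32 libraries. CRISPR-Cas9 editing had given cells with no p53 (KO), with the A347D change of p53 on 1 allele (HET) or on both alleles (HOM), which were compared with cells whose p53 was intact (WT). Each genotype received DMSO, the solvent, or 20 µM etoposide, a topoisomerase II poison that leaves DNA double-strand breaks, for 24 h with 4 libraries in each of the 8 groups. The replicates were separate plates, and the number of edited clones per genotype was not given in the sources used here. Genotype and line therefore cannot be told apart, and each p-value measures the spread between plates. In RNA from whole cultures, fewer cells of a kind and less RNA per cell cannot be told apart.

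Double-strand breaks can be rejoined directly by the Ku heterodimer (XRCC5 and XRCC6) with DNA ligase IV, or through short homologies by polymerase theta. Base excision repair removes damaged bases with glycosylases and seals the resulting nick with the help of PARP1, PARP2 and XRCC1, nucleotide excision repair cuts out bulky lesions, mismatch repair corrects replication errors, and translesion polymerases copy past damage. p53 is a stress-activated transcription factor that raises several repair genes directly and, through cell cycle arrest, is known for lowering genes whose promoters are bound by E2F factors and the DREAM complex.

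The promoters of 5 repair genes are shown, namely POLQ, PARP1, PARP2, UNG and MSH6. In the results that follow they had the largest increases in KO over WT with etoposide and were also higher in HOM. PMS1, likewise higher in both, and MGMT and ERCC1, lower in both, are not shown. Each line runs 5′ to 3′ on the strand of the gene, from 250 bases before the most upstream RefSeq start to 50 bases after it, on GRCh38.p14. The windows are chr3:121545939-121546238 on the minus strand for POLQ, chr1:226408044-226408343 on the minus strand for PARP1, chr14:20343385-20343684 on the plus strand for PARP2, chr12:109097347-109097646 on the plus strand for UNG, and chr2:47782895-47783194 on the plus strand for MSH6. Capitals mark matches on either strand to the letters TTCCCGC or TTGGCGC or TTCGCGC or TTGCCGC, an E2F-type core, and in UNG 2 matches on opposite strands overlap.
POLQ: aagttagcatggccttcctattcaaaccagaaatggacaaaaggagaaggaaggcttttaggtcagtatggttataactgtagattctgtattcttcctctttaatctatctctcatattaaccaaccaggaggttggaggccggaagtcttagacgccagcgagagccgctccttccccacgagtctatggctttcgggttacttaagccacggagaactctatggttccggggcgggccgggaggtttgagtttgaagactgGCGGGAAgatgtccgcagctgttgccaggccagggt
PARP1: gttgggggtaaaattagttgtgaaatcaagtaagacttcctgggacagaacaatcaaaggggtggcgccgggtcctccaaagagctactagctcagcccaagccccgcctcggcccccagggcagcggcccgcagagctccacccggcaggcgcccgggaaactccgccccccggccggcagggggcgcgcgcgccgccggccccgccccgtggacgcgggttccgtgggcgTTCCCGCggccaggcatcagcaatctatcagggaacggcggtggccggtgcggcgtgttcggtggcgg
PARP2: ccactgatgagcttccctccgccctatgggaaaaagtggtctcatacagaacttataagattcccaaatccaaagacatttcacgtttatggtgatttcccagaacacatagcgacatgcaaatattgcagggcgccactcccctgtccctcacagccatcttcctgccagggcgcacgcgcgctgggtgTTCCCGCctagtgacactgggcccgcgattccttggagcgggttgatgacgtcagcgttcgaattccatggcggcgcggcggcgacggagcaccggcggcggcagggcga
UNG: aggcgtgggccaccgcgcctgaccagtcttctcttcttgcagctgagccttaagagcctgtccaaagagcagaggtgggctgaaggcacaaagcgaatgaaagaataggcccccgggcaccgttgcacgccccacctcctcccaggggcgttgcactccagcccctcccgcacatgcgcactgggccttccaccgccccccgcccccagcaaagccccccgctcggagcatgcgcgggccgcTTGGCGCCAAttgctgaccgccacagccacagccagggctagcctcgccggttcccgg
MSH6: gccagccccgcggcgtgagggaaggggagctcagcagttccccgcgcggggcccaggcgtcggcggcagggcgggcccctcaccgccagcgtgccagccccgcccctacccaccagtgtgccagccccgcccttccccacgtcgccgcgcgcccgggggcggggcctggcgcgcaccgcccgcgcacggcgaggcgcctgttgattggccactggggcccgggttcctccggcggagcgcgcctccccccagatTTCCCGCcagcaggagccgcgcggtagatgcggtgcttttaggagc

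The 7-letter core was found in 13.0% of 27305 RefSeq promoter windows of the same length and in 17 of the 42 repair genes that had a window (40.5%), among them all 5 shown. These letters were settled on after the 5 windows had been read, so the match is a description only. The 27305 windows outnumber the 16824 tested genes, so some belong to genes not tested here. The 5 windows shown held 50.3% (POLQ) to 78.0% (MSH6) G+C. The background was not matched to the repair genes for G+C content or expression. Whether the core is more frequent in repair genes than in like promoters was therefore not tested, and this holds for the other letters below. The longer forms TTTCCCGC and TTTGGCGC and TTTCGCGC and TTTGCCGC were in 3.3% of all windows and in 5 of 42 repair genes (XRCC6, MSH3, MSH6, PMS2 and POLI), of which MSH6 alone is among those shown. CCAAT, searched on both strands, was in 35.7% of all windows and in 19 of 42. The cell cycle homology letters TTTGAA or TTCGAA were in 16.7% and in 6 of 42, with POLQ and PARP2 among them.

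Library depth, recovered from the deposited values, was 18.25 to 24.19 M counts (M, the prefix mega), except for 8.05 M in replicate 2 of HET with etoposide. The collagen and mesenchymal markers COL1A1, SPARC and VIM were high in every library (lowest 18530 for SPARC), whereas TWIST1 reached at most 5.257 and COL1A2 at most 54.19. Of 6 epithelial markers, KRT8 and KRT18 were high (means 5802 and 8731) and the other 4 had means of at most 53.93. Their sum was 13650 to 18630 in WT, 14790 to 21800 in KO and 5908 to 8644 in HET with DMSO, and 13900 to 16740, 15120 to 19160, 10450 to 11470 and 8028 to 9842 in WT, KO, HET and HOM with etoposide. It was 10890 in replicate 1 of HOM with DMSO and up to 37250 in the others, and its part in the results was not tested. The 6 blood markers summed to at most 51.65. Replicates 2, 3 and 4 of HOM with DMSO stood apart from replicate 1 and from all other libraries: their normalized sums were 32.02, 36.84 and 47.28 M against 22.94 M, and mitochondrial transcripts took 20.68%, 21.29% and 21.92% of them against 12.46%. Over the 44 genes, the log2 difference of those 3 libraries from replicate 1 had a Pearson correlation of 0.92 with the G+C content of the longest coding transcript and of -0.50 with its log2 length, beside 0.72 and -0.26 over all 15459 tested coding genes. Every comparison that uses HOM with DMSO is therefore given with all 4 libraries and with replicate 1 alone.

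A second library, replicate 3 of WT with DMSO, stood apart for some of the repair genes. Against the other 3 WT DMSO libraries RIF1, LIG4, POLK and REV3L stood there at -2.68, -2.45, -2.42 and -2.08 on the log2 scale, beyond the lowest 1% of all 16824 tested genes, which ended at -1.96. XRCC4 stood at -1.93. XRCC5 was higher there by 0.80 and MSH6 by 0.54. Values without this library are given beside the results it moves.

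**Figure D1:**
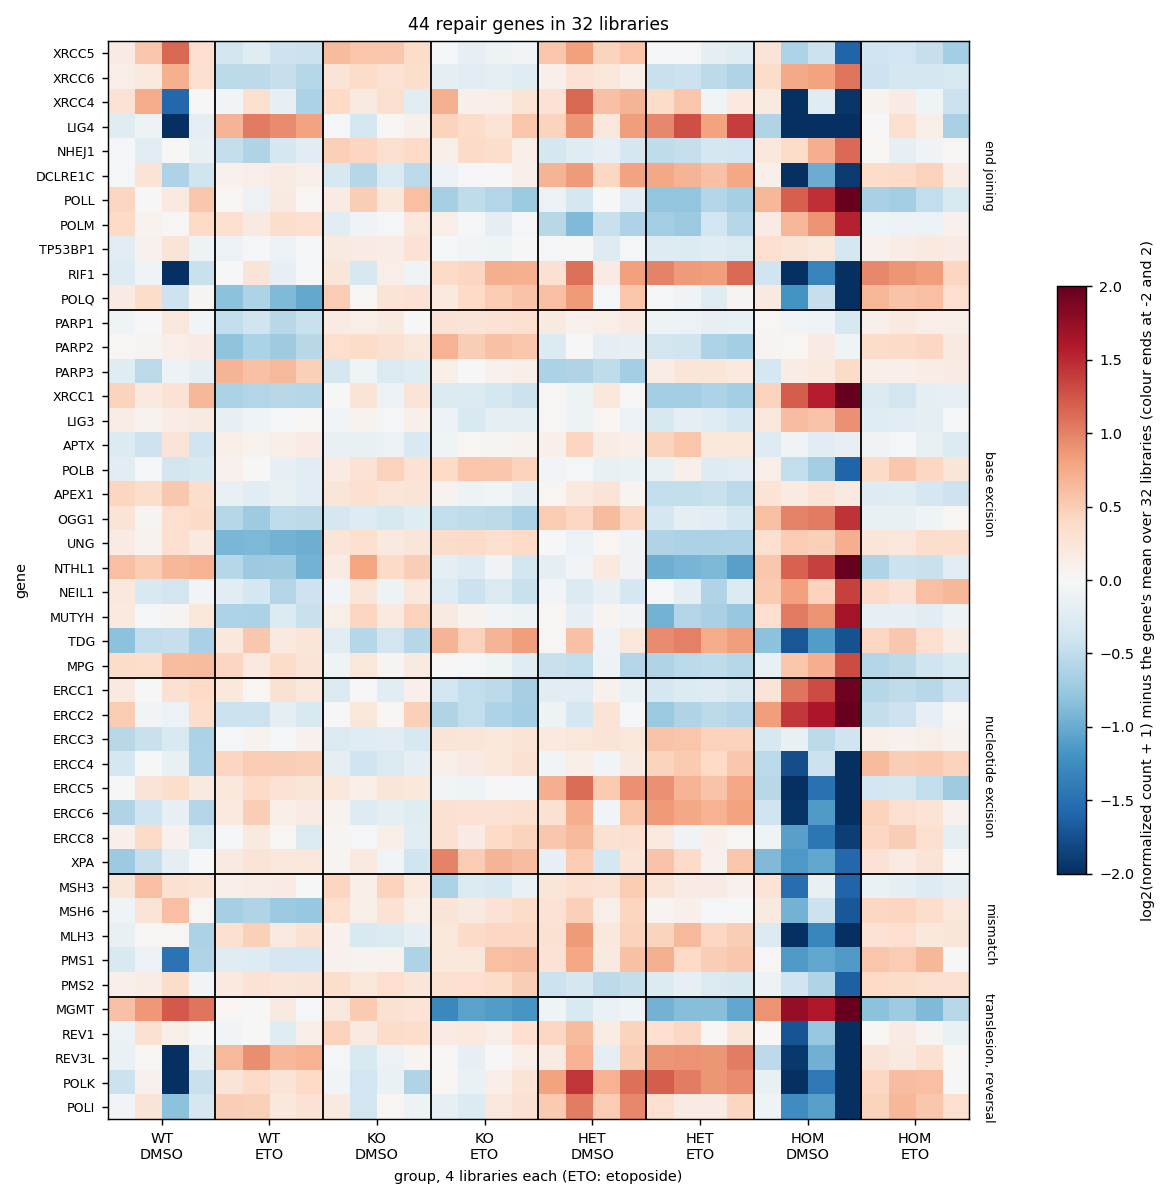
Heat map of log2(normalized count + 1) minus each gene's mean over 32 libraries, with the 44 repair genes as rows grouped by pathway and the libraries as columns in blocks of 4 per group. Replicates 2 to 4 of HOM with DMSO differ from replicate 1 over many genes, and RIF1, LIG4, POLK and REV3L are lower in replicate 3 of WT with DMSO than in the other 3 libraries of that group.

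The 44 genes spanned a wide range of levels. Per kilobase of the longest coding transcript, and averaged over all libraries, XRCC6 (chr22:41621119-41664048), the smaller Ku subunit, was highest at 3927.68 normalized counts, followed by APEX1 (chr14:20455191-20457772), the abasic site endonuclease, at 3385.54 and XRCC5 (chr2:216107464-216206303), the larger Ku subunit, at 2272.2. ERCC1, partner of the XPF nuclease, led the nucleotide excision genes at 1146.53, PMS2, a subunit of the MutL alpha complex, led the mismatch genes at 427.5, and MGMT, which removes methyl groups from guanine, led the last class at 168.44. The lowest per kilobase were REV3L at 19.29, MLH3 at 18.2 and POLI at 15.11. PMS2 has near-identical copies in the genome, so its reads may be split between them and its values are uncertain. The strand used in counting was not given, so genes that overlap an antisense neighbour cannot be told apart from it.

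In WT cells, 7 of the 15 base excision genes and both Ku subunits fell with etoposide, while TDG, PARP3, LIG4 and REV3L were among the genes that rose. Of the 44 genes, 7 rose and 12 fell (limma, adjusted p under 0.05 and at least 1.5-fold), or 43.2%, beside 35% (20.1% higher and 14.9% lower) of all 16824 tested genes. The median log2 change was -0.09, beside 0.05 over all tested genes. By class, 2 of 15 base excision genes rose and 7 fell, 1 of 11 end joining genes rose and 3 fell, 2 of 8 nucleotide excision genes rose and none of them fell, 1 of 5 mismatch genes fell, and 2 of 5 translesion and reversal genes rose and 1 fell. With total-count scaling, which moved the median of all genes from 0.05 to 0.28, the split was 9 higher and 6 lower.

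The glycosylases NTHL1 and UNG fell furthest of the 44 genes. NTHL1, which excises oxidized pyrimidines, stood at 435.6, 405.2, 450.9 and 463.7 normalized counts with DMSO and at 191.5, 172.6, 174.2 and 147.5 with etoposide. UNG, the main uracil glycosylase, stood at 1462, 1371, 1644 and 1485 with DMSO and at 687.8, 699.4, 675.8 and 662.1 with etoposide. In both genes every etoposide library lay below every DMSO library. NTHL1 fell by 1.36 on the log2 scale (SE 0.19, adjusted p 1.03e-06) and UNG fell by 1.13 (SE 0.07, adjusted p 2.11e-13). XRCC1, the scaffold of single-strand break repair, moved from 2136, 1800, 1916 and 2496 to 1020, 1045, 1075 and 1056 without overlap and fell by 0.98 (SE 0.18, adjusted p 3.63e-05). OGG1, the 8-oxoguanine glycosylase, moved from 1139, 972.4, 1186 and 1226 to 634.1, 571, 661 and 650.6, a fall of 0.84 (SE 0.11, adjusted p 2.97e-07) with no overlap. APEX1 moved from 6641, 6246, 7168 and 6287 to 4452, 4249, 4453 and 4224. It fell by 0.60 (SE 0.07, adjusted p 2.23e-08), but without replicate 3 of WT with DMSO its change was -0.56, under 1.5-fold, which leaves 6 of 15 base excision genes as falls. The adenine glycosylase MUTYH fell by 0.61 (SE 0.16, adjusted p 0.00254). Total-count scaling, which moved the median of all genes from 0.05 to 0.28, puts the falls of APEX1 and MUTYH under 1.5-fold.

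Both Ku subunits fell in WT cells. XRCC5 stood at 9004, 11600, 17680 and 10060 with DMSO and at 6232, 6730, 6003 and 5936 with etoposide, and XRCC6 at 11120, 11560, 16520 and 12640 against 6988, 7032, 7378 and 6841. The groups did not overlap for either gene, and the highest DMSO value of each came from replicate 3. XRCC5 fell by 0.91 (SE 0.22, adjusted p 0.00104) and XRCC6 by 0.86 (SE 0.11, adjusted p 1.37e-07), and without that library they fell by 0.71 and 0.74. XRCC5 did not pass with total-count scaling (log2 change -0.68, adjusted p 0.0754) or with quantile normalization (-0.56, adjusted p 0.0761). POLQ, the polymerase of theta-mediated end joining, stood at 240.2, 276.9, 160.3 and 221.6 with DMSO and at 120.1, 139.5, 115 and 104.1 with etoposide, again apart, and fell by 0.88 (SE 0.27, adjusted p 0.00731).

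MSH6, a mismatch recognition protein, was at 2404, 3055, 3880 and 2579 with DMSO and at 1598, 1669, 1542 and 1499 with etoposide. These 2 sets did not overlap, and MSH6 fell by 0.89 (SE 0.21, adjusted p 0.000814), though not with total-count scaling (-0.67, adjusted p 0.0771). PARP2 was at 873.1, 890.1, 947.2 and 961.1 with DMSO and at 492.1, 557.9, 523.4 and 585 with etoposide. It fell by 0.77 (SE 0.08, adjusted p 1.23e-08), with the groups apart. The shift by total-count scaling that took MSH6 from -0.89 to -0.67 also puts the PARP2 fall under 1.5-fold. PARP1, the main sensor of strand breaks, was at 4040, 4283, 5000 and 4151 against 3040, 3257, 2926 and 3155, lower in every etoposide library, but its log2 change of -0.49 (SE 0.07, adjusted p 1.83e-06) was below 1.5-fold and did not count as a fall. PMS2 was at 1256, 1296, 1518 and 1126 against 1345, 1441, 1382 and 1404, overlapping sets with a log2 change of 0.11.

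Fewer genes rose in WT cells. TDG, the thymine glycosylase, moved from 275.5, 343.3, 350.5 and 309.5 to 559.3, 703.4, 555.6 and 574.4, and PARP3, a poly(ADP-ribose) polymerase active at strand breaks, from 541.4, 443.3, 601.5 and 557.7 to 1025, 962.3, 1010 and 893.4. Neither gene's groups overlapped. TDG rose by 0.90 (SE 0.16, adjusted p 3.31e-05) and PARP3 by 0.87 (SE 0.11, adjusted p 1.13e-07). LIG4, the ligase of non-homologous end joining, was at 64.81, 71.67, 11.59 and 67.41 with DMSO and at 123.5, 159.6, 148.1 and 134.9 with etoposide. REV3L, the catalytic subunit of polymerase zeta, was at 169.7, 189.4, 40.55 and 164.4 against 290.6, 355.2, 295.2 and 300.7. POLK, a translesion polymerase, was at 81.97, 117.7, 16.41 and 80.69 against 131.9, 143.5, 132.4 and 145.5. All etoposide libraries lay above all DMSO libraries in these 3 genes, and replicate 3 was the lowest DMSO value in each. LIG4 rose by 1.65 (SE 0.41, adjusted p 0.00133), REV3L by 1.34 (SE 0.33, adjusted p 0.00128) and POLK by 1.19 (SE 0.42, adjusted p 0.0205). Without replicate 3 the log2 changes were 1.04 for LIG4 (adjusted p 9.97e-03) and 0.83 for REV3L (adjusted p 8.28e-03), and POLK no longer passed (0.58, adjusted p 0.176). POLK also missed the threshold when only the 2 groups compared were fitted (adjusted p 0.0523).

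Of the 8 nucleotide excision genes, 2 rose in WT cells. ERCC4, the XPF nuclease, rose by 0.75 (SE 0.22, adjusted p 0.00512) and ERCC6, the CSB protein of transcription-coupled repair, by 0.68 (SE 0.22, adjusted p 0.0127). XPA (0.58), ERCC3, the XPB helicase (0.51), and ERCC2 (-0.51) had an adjusted p under 0.05 but less than 1.5-fold. Without replicate 3 of WT with DMSO, XPA (0.63) and ERCC2 (-0.61) were called. ERCC1 was at 4552, 3998, 4956 and 5278 with DMSO and at 4633, 4119, 4936 and 4620 with etoposide, with overlapping groups and a log2 change of -0.03. MGMT moved from 352.7, 427.4, 553.3 and 495.4 to 241.9, 234.8, 267.4 and 231.3, with no overlap, and fell by 0.89 (SE 0.18, adjusted p 0.000139). Over the 44 genes, the WT response had a correlation of -0.53 with transcript G+C content, and over all 15459 tested coding genes -0.12. After the G+C and length trend of each library was removed, 17 of the genes were called, beside 37% of all tested coding genes. Of the 17, 16 were shared with the 19 above. TDG, ERCC4 and ERCC6 were then under 1.5-fold (log2 changes 0.55, 0.47 and 0.51), LIG4 stood at 1.14, REV3L at 1.07 and POLK at 0.60, and PARP1 passed with -0.66.

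In KO cells a smaller set responded, and UNG, PARP1, PARP2, POLQ and MSH6 were not among the falls. Of the 44 genes, 2 rose and 6 fell with etoposide (18.2%, beside 32.6%, with 18.1% higher and 14.5% lower, of all tested genes), with a median of 0.09. TDG rose by 1.09 (SE 0.16, adjusted p 2.67e-06), from 415.6, 327.7, 376.3 and 326.3 to 775.3, 667.7, 773.6 and 865.9, and XPA, the damage verifier of nucleotide excision, rose by 0.76 (SE 0.18, adjusted p 0.00123), though under 1.5-fold with the G+C trend removed (0.44) or on the deposited values (0.57). MGMT fell by 1.49 (SE 0.18, adjusted p 7.01e-08), from 274.5, 339.5, 289.8 and 284 to 95.88, 111.1, 108 and 103.4, with a wide gap between the groups. POLL, a gap-filling polymerase of end joining, fell by 1.0 (SE 0.17, adjusted p 2.91e-05), from 992.8, 1249, 1029 and 1353 to 557.8, 620.8, 593.4 and 528.8. ERCC2, the XPD helicase, fell by 0.78 (SE 0.18, adjusted p 0.00102) and NTHL1 by 0.68 (SE 0.19, adjusted p 0.005), or by 0.57 and under 1.5-fold without replicate 2 of KO with DMSO. XRCC5 fell by 0.61 (SE 0.22, adjusted p 0.0229), and MSH3 by 0.64 (SE 0.24, adjusted p 0.0331). The MSH3 call was lost without replicate 1 or 3 of either KO group (adjusted p 0.0533 to 0.101). With total-count scaling, where the median of all genes was 0.35, the split was 8 higher and 2 lower. The 2 lower were MGMT and POLL, so that XRCC5, ERCC2 (-0.47), NTHL1 (-0.37) and MSH3 (-0.33) were not called. NTHL1 was also under 1.5-fold with array weights (-0.57) and with the G+C trend removed (-0.56), and MSH3 on the deposited values (-0.53).

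With etoposide, UNG, PARP2, POLQ, MSH6 and PARP1 were the 5 genes of largest increase in KO over WT, and MGMT had the largest decrease. In KO cells with etoposide UNG stood at 1674, 1691, 1638 and 1707, PARP2 at 1392, 1207, 1299 and 1260, and POLQ at 243.4, 283.1, 303.6 and 316.9. Each of these values lay above every WT etoposide value given above. MSH6 stood at 3056, 2879, 3101 and 3277 and PARP1 at 5256, 5131, 5251 and 5359, also above all WT etoposide libraries. UNG was higher in KO by 1.30 (SE 0.07, adjusted p 1.46e-14), PARP2 by 1.26 (SE 0.08, adjusted p 8.12e-13) and POLQ by 1.25 (SE 0.27, adjusted p 0.000353). MSH6 was higher by 0.96 (SE 0.21, adjusted p 0.000449) and PARP1 by 0.76 (SE 0.07, adjusted p 8.85e-10). NHEJ1, the XLF factor that aligns broken ends, was higher by 0.66 (SE 0.13, adjusted p 0.000132), and PMS1, a MutL subunit, by 0.71 (SE 0.25, adjusted p 0.0217). NHEJ1 was already higher with DMSO, at 504.6 to 559.7 in KO against 346 to 403.6 in WT. PMS1 with DMSO was at 70.16 to 114.9 in KO and 38.62 to 99.98 in WT, with overlap. Neither gene was called for a response differing between KO and WT. MGMT was lower in KO by 1.21 on the log2 scale (log2 change -1.21, SE 0.18, adjusted p 2.13e-06).

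ERCC1 in KO cells with etoposide stood at 3055, 2844, 2782 and 2519, below all WT etoposide libraries (log2 change -0.71, SE 0.18, adjusted p 0.00274). POLL was also below them (-0.66, SE 0.17, adjusted p 0.00293), with 915.4, 816.8, 1003 and 907.9 in WT. In all, 7 of the 44 genes were higher and 3 lower in KO than in WT with etoposide (22.7%, beside 26.7%, with 11.7% higher and 15% lower, of all tested genes). The share was thus below that of all genes. The correlation of these differences with transcript G+C content was -0.20, beside -0.14 over all tested coding genes, and with that trend removed UNG stood at 1.34, PARP2 at 1.14, POLQ at 1.39, MSH6 at 1.04 and PARP1 at 0.89. The ERCC1, POLL and PMS1 differences were then under 1.5-fold (-0.53, -0.54 and 0.50), and that of POLL also with total-count scaling (-0.58). Under DMSO, 1 of the 44 genes, MGMT, differed between KO and WT (log2 change -0.61, SE 0.18, adjusted p 0.0208), beside 8.35% (2.75% higher and 5.59% lower) of all tested genes. That call was lost when replicate 3 or 4 of WT or replicate 1 or 4 of KO with DMSO was left out (adjusted p 0.0503 to 0.0852), and it was under 1.5-fold with the G+C trend removed (-0.56) or on the deposited values (-0.55). The DMSO differences of the 5 genes were 0.06 for UNG, 0.22 for PARP2, 0.23 for POLQ, 0.02 for MSH6 and 0.10 for PARP1, none of which passed.

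**Figure D2:**
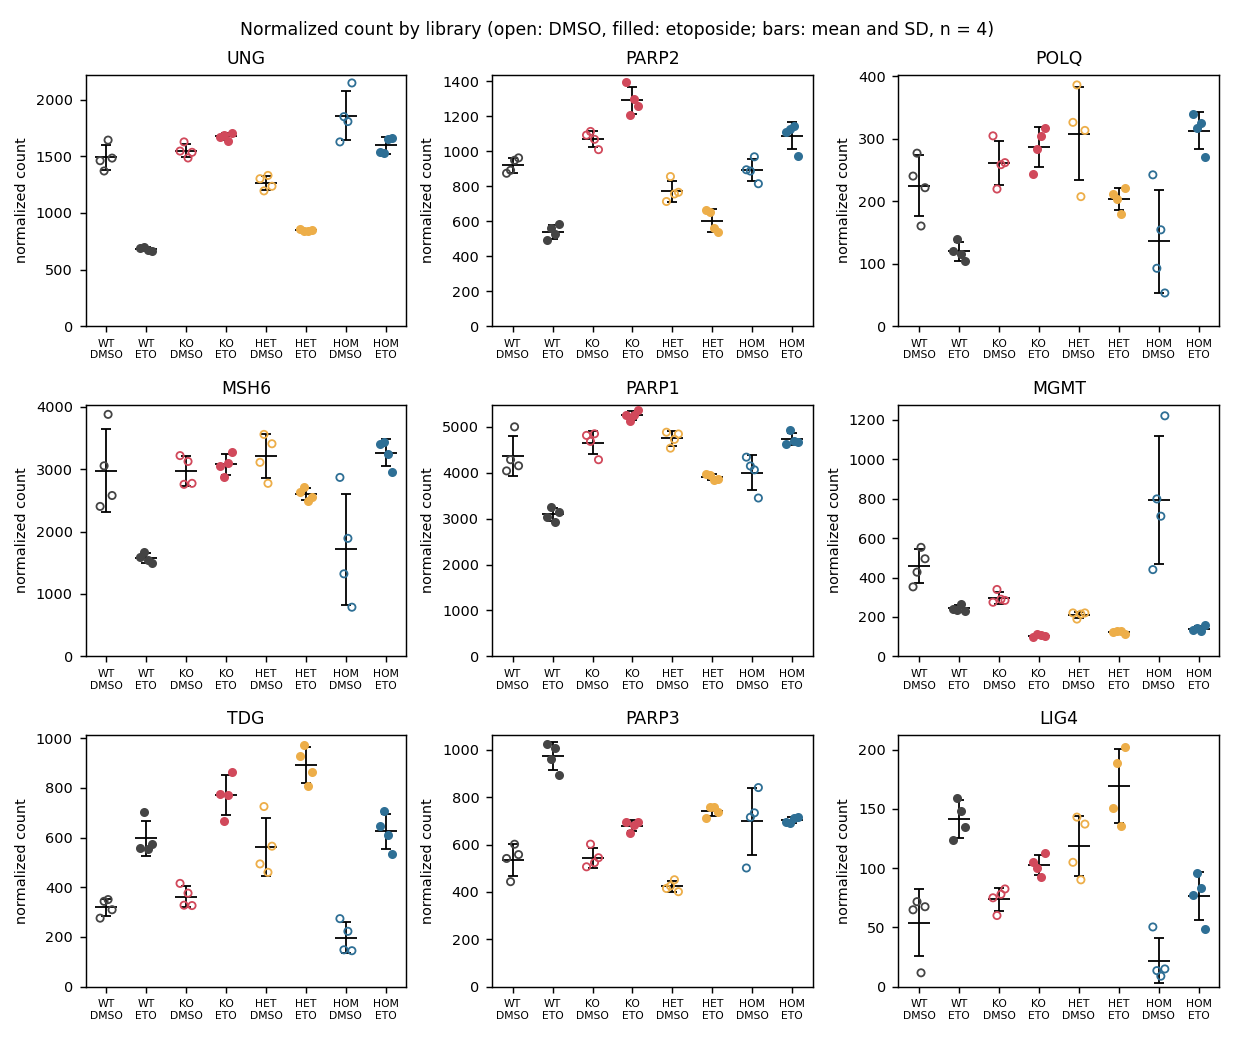
Normalized count by library for 9 repair genes in the 8 groups (open circles DMSO, filled circles etoposide, bars mean and SD of 4 libraries, axes from 0). UNG, PARP2, POLQ, MSH6 and PARP1 are low in WT with etoposide and higher in KO and HOM with etoposide, MGMT is lower with etoposide in each genotype, and TDG is higher.

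The difference between the 2 responses was tested directly. Of the 44 genes, 5 responded more positively in KO than in WT and 1 more negatively (13.6%, beside 15.2%, with 7.11% higher and 8.13% lower, of all tested genes). UNG differed by 1.24 (SE 0.10, adjusted p 4.52e-10), PARP2 by 1.04 (SE 0.12, adjusted p 1.83e-07), MSH6 by 0.95 (SE 0.30, adjusted p 0.0231) and PARP1 by 0.67 (SE 0.10, adjusted p 1.57e-05). OGG1 differed by 0.59 (SE 0.16, adjusted p 0.00683), with KO values of 741.7, 782.8, 747.9 and 789.5 with DMSO and 665.6, 659, 647.8 and 607.8 with etoposide. In OGG1 the KO DMSO libraries lay below all WT DMSO libraries, and KO and WT overlapped with etoposide. POLL differed by -0.74 (SE 0.25, adjusted p 0.0323). POLQ, at 1.02 (SE 0.38, adjusted p 0.0585), did not pass. Without replicate 3 of WT with DMSO, MSH6 (0.81, adjusted p 0.0625), POLL (-0.71, adjusted p 0.0582) and OGG1 (0.57, under 1.5-fold) no longer passed, whereas POLQ (1.17, adjusted p 3.41e-02) and PARP3 (-0.60, adjusted p 6.71e-03) did. MSH6 also missed the threshold with total-count scaling (1.03, adjusted p 0.113). POLL also missed the threshold without replicate 2 of WT or replicates 2 or 4 of KO with DMSO, or without replicates 1 or 3 of WT or 1 or 4 of KO with etoposide (adjusted p 0.0514 to 0.0786). OGG1 was also under 1.5-fold (0.55 to 0.58) without replicate 4 of WT or 1 or 3 of KO with DMSO, or without replicate 2 of WT or 1 or 2 of KO with etoposide. UNG, PARP1 and PARP2 passed in each of the 16 fits that left out 1 library and with the G+C trend removed (1.20, 0.71 and 0.88).

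In HOM cells with etoposide the same 5 genes were also higher than in WT. In HOM with etoposide UNG stood at 1537, 1527, 1655 and 1666, POLQ at 339.5, 317.3, 325.2 and 270.4, and PARP2 at 1111, 1126, 1143 and 971.1. All lay above every WT etoposide library. MSH6 stood at 3407, 3441, 3251 and 2962 and PARP1 at 4619, 4925, 4700 and 4670, likewise above WT. Against WT with etoposide, POLQ was higher by 1.38 (SE 0.27, adjusted p 0.0001), UNG by 1.23 (SE 0.07, adjusted p 4.54e-14), MSH6 by 1.05 (SE 0.21, adjusted p 0.000156) and PARP2 by 1.01 (SE 0.08, adjusted p 6.2e-11). PARP1 was higher by 0.61, PMS1 by 0.74 and NEIL1, a glycosylase for oxidized bases, by 0.87 (SE 0.17, adjusted p 8.06e-05). MGMT (-0.80, SE 0.18, adjusted p 0.000546), MPG, the alkyladenine glycosylase (-0.77, SE 0.17, adjusted p 0.000422), ERCC5, the XPG nuclease (-0.77, SE 0.23, adjusted p 0.00874) and ERCC1 (-0.70, SE 0.18, adjusted p 0.00273) were lower. Thus 7 genes were higher and 4 lower (25%, beside 28.6%, with 14% higher and 14.7% lower, of all tested genes). With total-count scaling, where the median of all genes was 0.20, 9 were higher and 0 lower, so the 4 lower calls did not hold under it.

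Between HOM and KO with etoposide 1 of the 44 genes was called, beside 12.1% (7.47% higher and 4.67% lower) of all tested genes. NEIL1 stood at 132.2, 124.2, 154.2 and 161.6 in HOM and at 84.82, 75.54, 82.8 and 73.98 in KO, without overlap, a log2 difference of 0.84 (SE 0.17, adjusted p 0.000398). It was at 87.34, 79.28, 67.06 and 76.14 in WT with etoposide. A further 4 genes had an adjusted p under 0.05 and less than 1.5-fold: OGG1 at 0.45, XPA at -0.52, PARP2 at -0.25 and APEX1 at -0.24. For UNG the 95% interval of the difference was -0.22 to 0.08, for PARP1 -0.30 to 0.00 and for PARP2 -0.42 to -0.07. For MSH6 it was -0.34 to 0.51 and for POLQ -0.42 to 0.67. In 22 of the 44 genes the interval lay wholly within 1.5-fold, and in the other 22 it did not, so a difference of that size was not excluded there.

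**Figure D3:**
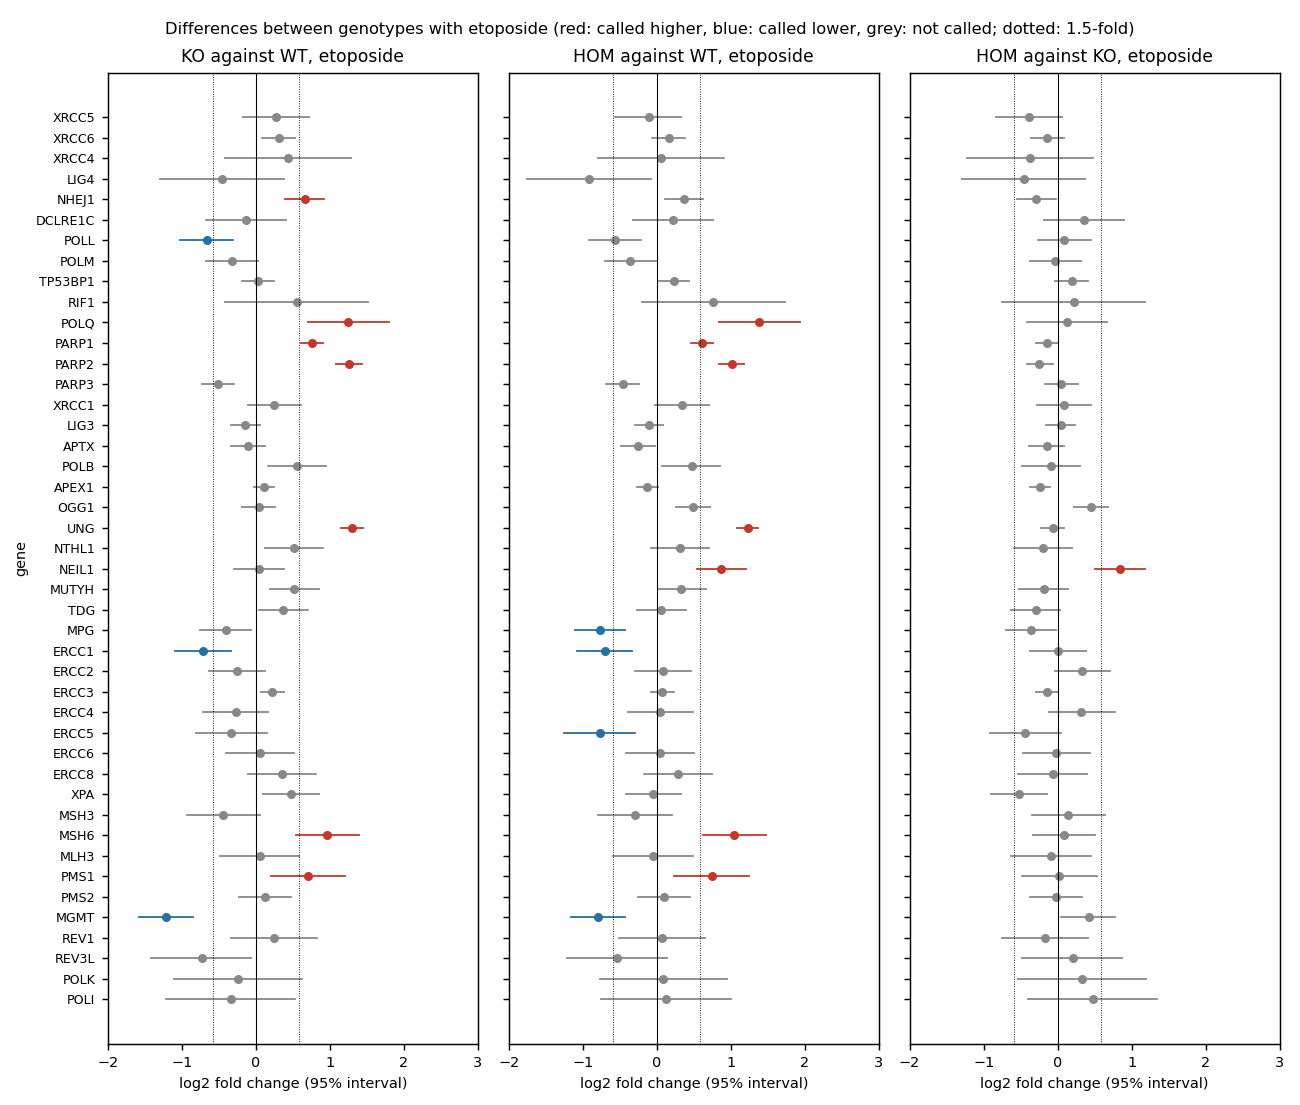
Log2 fold change with 95% interval for each of the 44 repair genes between genotypes with etoposide (red called higher, blue called lower, grey not called, dotted lines at 1.5-fold). UNG, PARP2, POLQ, MSH6 and PARP1 lie to the right in KO against WT and in HOM against WT, and NEIL1 is the single called gene in HOM against KO.

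With etoposide, HET cells, with 1 changed allele, lay between WT and KO without overlap for UNG, MSH6, PARP1 and POLQ, while PARP2 overlapped WT. These genes were picked for their difference between KO and WT with etoposide. The share of all tested genes that lay in this order was not computed. In HET against WT with etoposide, POLQ (0.47) and MSH6 (0.40) were under 1.5-fold with the G+C trend removed. The HET UNG values were 1303, 1195, 1332 and 1236 with DMSO and 856.8, 838.6, 843.9 and 847.7 with etoposide. The latter lay above all WT and below all KO etoposide libraries. The DMSO values lay below every WT and every KO DMSO library, so HET was not between them there. The UNG response was -0.58 (SE 0.07, adjusted p 1.45e-07), just short of 1.5-fold, and it differed from the WT response by 0.55 (SE 0.10, adjusted p 0.000813), also under 1.5-fold. Of the 44 genes, 2 rose and 8 fell in HET (22.7%, beside 30.2%, with 17.5% higher and 12.7% lower, of all tested genes): PARP3 rose by 0.81 (SE 0.11, adjusted p 4.02e-07) and TDG by 0.69 (SE 0.16, adjusted p 0.000882). NTHL1 fell by 0.94 (SE 0.19, adjusted p 0.000186), MGMT by 0.77 (SE 0.18, adjusted p 0.000747), and OGG1 by 0.76 (SE 0.11, adjusted p 1.66e-06). XRCC1 fell by 0.72 (SE 0.18, adjusted p 0.00144) and XRCC5 by 0.72 (SE 0.22, adjusted p 0.00855). With total-count scaling, where the median of all genes was 0.20, 2 were higher and 1 lower, and MGMT (-0.58), OGG1 (-0.57), XRCC1 (-0.53) and XRCC5 (-0.52) were not called. No gene of the 44 was called for a response differing between HET and WT in limma, beside 4.75% (2.97% higher and 1.78% lower) of all tested genes. At an unadjusted p under 0.05 there were 4. Array weights gave 1 call, and fitting only the groups compared gave 2.

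Differences in level between HET and WT went with transcript G+C content. With DMSO, 11 of the 44 genes were higher and 4 lower in HET (34.1%, beside 32.5%, with 16.1% higher and 16.4% lower, of all tested genes), and their log2 differences had a correlation of -0.80 with G+C, beside -0.50 over all tested coding genes. POLK (1.87, SE 0.42, adjusted p 0.000655), RIF1, a regulator of end resection (1.53, SE 0.47, adjusted p 0.00941), LIG4 (1.39, SE 0.41, adjusted p 0.00693), PMS1 (1.08, SE 0.25, adjusted p 0.000796) and REV3L (0.90, SE 0.33, adjusted p 0.0265) were the largest of the higher genes. Without replicate 3 of WT with DMSO, RIF1, LIG4 and REV3L no longer passed (0.86, 0.77 and 0.39). REV3L also missed the threshold without replicate 2 or 4 of HET with DMSO (adjusted p 0.0925 and 0.0646). MGMT (-1.09, SE 0.18, adjusted p 1.27e-05), MPG (-0.90, SE 0.17, adjusted p 7.82e-05), POLM, a polymerase of end joining (-0.85, SE 0.17, adjusted p 0.000187), and NTHL1 (-0.65, SE 0.19, adjusted p 0.00749) were lower. With the G+C trend removed 6 genes were called, beside 22.2% of all tested coding genes. They were RIF1, ERCC3, ERCC6 and POLK, which were higher, and PMS2 and MGMT, which were lower. With total-count scaling, where the median of all genes was 0.26, 14 were higher and 2 lower.

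With etoposide, 3 of the 44 genes were higher and 4 lower in HET than in WT (15.9%, beside 23.3%, with 10.1% higher and 13.2% lower, of all tested genes). PMS1 was higher by 0.84 (SE 0.25, adjusted p 0.00892), POLQ by 0.77 (SE 0.27, adjusted p 0.0254) and MSH6 by 0.72 (SE 0.21, adjusted p 0.00811). MGMT (-0.98, SE 0.18, adjusted p 8.15e-05), POLM (-0.90, SE 0.17, adjusted p 0.00013), MPG (-0.87, SE 0.17, adjusted p 0.000164) and POLL (-0.74, SE 0.17, adjusted p 0.00136) were lower. These differences had a correlation of -0.70 with G+C, beside -0.47 over all tested coding genes. With the trend removed, MGMT (-0.67) and PMS2 (-0.66) were called and no other gene of the 44, beside 17.3% of all tested coding genes. The POLQ call was lost without replicate 3 or 4 of WT or replicate 1 or 4 of HET with etoposide (adjusted p 0.0547 to 0.0688). With total-count scaling 5 were higher and 3 lower, where the median of all genes was 0.24.

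Of the 44 genes, 3 were called in the same direction with etoposide in WT, KO, HET and HOM cells, namely MGMT and NTHL1 as falls and TDG as a rise. The share of all tested genes called alike in every genotype was not computed, so the count of 3 is a description only. With total-count scaling NTHL1 in KO (-0.37) and MGMT in HET (-0.58) were under 1.5-fold and not called. XRCC5 was called lower in WT, KO and HET, and stood at -0.74 in HOM with replicate 1 as the only HOM DMSO library. With total-count scaling XRCC5 was not called in WT (-0.68), KO or HET (-0.52). With quantile normalization it was not called in WT (-0.56) or HET (-0.43). MGMT was also lower than WT in KO, HET and HOM with etoposide. Its HET values were 220.4, 189.1, 214.3 and 220.4 with DMSO and 121.1, 129.2, 129 and 114.2 with etoposide, and HOM values with etoposide were 132.2, 142.8, 127.3 and 159. KO had the lowest MGMT of the etoposide groups, with no value above 111.1. After the G+C trend was removed, TDG was under 1.5-fold in WT, HET and HOM (0.55, 0.51 and 0.22) and NTHL1 in KO (-0.56), so that MGMT was then the one of these 3 called in each genotype.

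**Figure D4:**
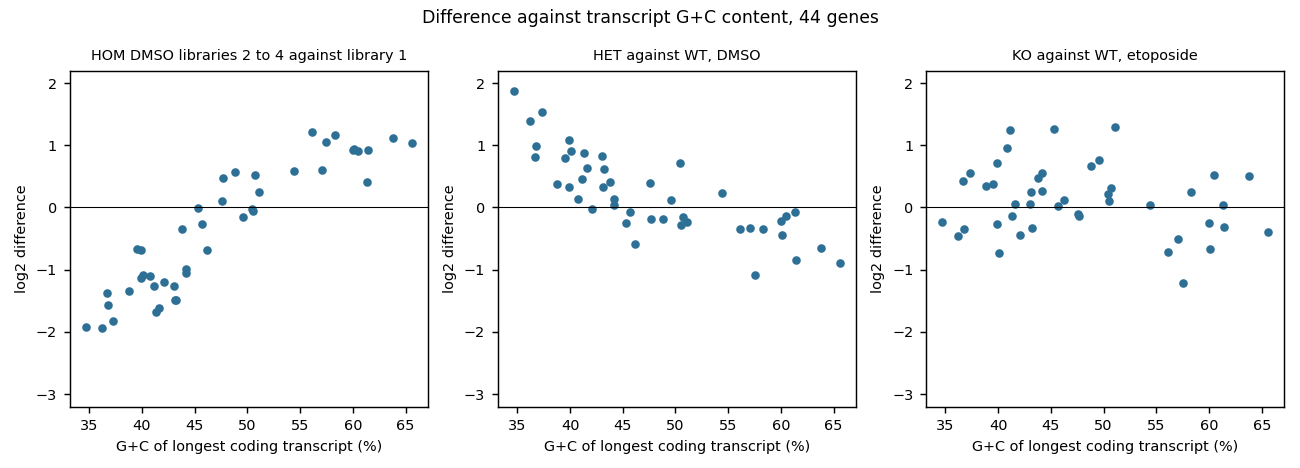
Log2 difference of each of the 44 repair genes (points) against the G+C content of its longest coding transcript, for HOM DMSO replicates 2 to 4 against replicate 1, HET against WT with DMSO, and KO against WT with etoposide. The correlations are 0.92, -0.80 and -0.20.

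Results that rest on HOM cells with DMSO changed with the 3 libraries that stood apart. In that group MSH6 stood at 2869, 1323, 1892 and 787.9, POLQ at 242.2, 92.61, 154.2 and 53.09, and MGMT at 440.3, 799.1, 711.4 and 1221, with replicate 1 at one end of each set. With all 4 libraries, 20 of the 44 genes rose and 13 fell in HOM with etoposide (75%, beside 65.6%, with 37.2% higher and 28.5% lower, of all tested genes). With replicate 1 alone, 4 rose and 9 fell, beside 38.2%. RIF1 (2.75, SE 0.47, adjusted p 7.1e-06), POLI (2.09, SE 0.43, adjusted p 7.06e-05), POLK (2.09, SE 0.42, adjusted p 5.86e-05), LIG4 (2.03, SE 0.41, adjusted p 6.06e-05) and MLH3, a MutL subunit (1.82, SE 0.26, adjusted p 5.87e-07), were the largest rises. With replicate 1 alone none of these 5 passed (1.18, 0.58, 0.56, 0.55 and 0.53). MGMT (-2.40, SE 0.18, adjusted p 2.77e-12), POLL (-1.87, SE 0.17, adjusted p 2.69e-10), ERCC2 (-1.77, SE 0.18, adjusted p 2.29e-09), NTHL1 (-1.74, SE 0.19, adjusted p 6.65e-09) and ERCC1 (-1.65, SE 0.18, adjusted p 7.75e-09) were the largest falls. With replicate 1 alone these 5 still passed, at -1.65, -1.20, -1.10, -0.95 and -0.77, and TDG rose by 1.18. The lone library is assumed there to vary like the other groups. Scaling by total count gave 30 higher and 5 lower, where the median of all genes was 1.13.

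Against WT with DMSO, 11 genes were higher and 18 lower in HOM (65.9%, beside 47.6%, with 20% higher and 27.6% lower, of all tested genes), and with replicate 1 alone 0 and 2, beside 4.54%: MPG (-0.63, adjusted p 0.0075) and ERCC5 (-0.75, adjusted p 0.00437). With all 4 libraries, ERCC2 (1.34, SE 0.18, adjusted p 2.54e-06), POLL (1.05, SE 0.17, adjusted p 2.29e-05), NEIL1 (0.92, SE 0.17, adjusted p 5.43e-05), ERCC1 (0.92, SE 0.18, adjusted p 0.000162) and XRCC1 (0.91, SE 0.18, adjusted p 0.000113) had led the higher genes. ERCC5 (-1.91, SE 0.23, adjusted p 4.4e-07), MLH3 (-1.37, SE 0.26, adjusted p 0.000109), POLI (-1.36, SE 0.43, adjusted p 0.00687), REV1 (-1.36, SE 0.28, adjusted p 0.000229) and LIG4 (-1.29, SE 0.41, adjusted p 0.00736) had led the lower ones. The correlation of the differences with G+C was 0.84 over the 44 genes and 0.65 over all tested coding genes. With total-count scaling, where the median of all genes was -0.58, the split was 1 higher and 25 lower.

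Against KO with DMSO, 10 genes were higher and 22 lower in HOM (72.7%, beside 51.2%, with 22.6% higher and 28.6% lower, of all tested genes), and with replicate 1 alone 2 and 2, beside 8.66%. The largest with all 4 libraries were MGMT (1.33, SE 0.18, adjusted p 7.96e-07), ERCC2 (1.32, SE 0.18, adjusted p 1.43e-06), OGG1 (1.32, SE 0.11, adjusted p 2.62e-10), ERCC1 (1.25, SE 0.18, adjusted p 3.27e-06) and XRCC1 (1.21, SE 0.18, adjusted p 2.95e-06). The lowest were LIG4 (-2.01, SE 0.41, adjusted p 0.000134), RIF1 (-1.97, SE 0.47, adjusted p 0.000679), ERCC5 (-1.92, SE 0.23, adjusted p 1.91e-07), REV1 (-1.62, SE 0.28, adjusted p 2.74e-05) and POLI (-1.53, SE 0.43, adjusted p 0.00255). With replicate 1 alone the called genes were OGG1 (0.89, adjusted p 4.1e-06), ERCC2 (0.65, adjusted p 0.0445), ERCC5 (-0.75, adjusted p 0.00246) and XPA (-0.83, adjusted p 0.0434). Scaling by total count gave 5 higher and 27 lower, where the median of all genes was -0.54.

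The response of HOM differed from that of WT in 21 genes upward and 7 downward with all 4 libraries (63.6%, beside 50.2%, with 26.2% higher and 23.9% lower, of all tested genes). With replicate 1 alone it differed in 5 upward and 3 downward, beside 18.4%. With replicate 1 alone the 5 were POLQ (1.25, adjusted p 0.00248), UNG (1.10, adjusted p 1.76e-08), MSH6 (1.08, adjusted p 0.000121), PARP2 (1.05, adjusted p 4.91e-06) and PARP1 (0.62, adjusted p 0.000166), and the 3 were POLL (-0.94), MGMT (-0.76) and ERCC1 (-0.74). The 5 genes are those whose promoters are printed above, which were chosen as higher in KO and in HOM than in WT with etoposide. The response difference uses the same HOM and WT etoposide libraries, so this match is not independent of that choice. Against the KO response, 19 genes differed upward and 10 downward with all 4 libraries (65.9%, beside 43.7%, with 24.4% higher and 19.3% lower, of all tested genes), and 0 with replicate 1 alone, beside 1.85%. With all 4 libraries, RIF1 and POLI in the first difference and LIG4 in the second each missed the threshold in several fits that left out 1 library (adjusted p 0.0511 to 0.0782). POLK in the second missed it without replicate 2 of HOM with DMSO (adjusted p 0.0543). Total-count scaling gave 27 and 3 for the first difference, where the median of all genes was 0.78, and 26 and 0 for the second, where it was 0.73.

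Among 72 related genes of the same pathways, some listed under more than 1 pathway, those that mismatch repair shares with replication were mostly lower with etoposide in WT. In WT cells 14 of the 72 rose and 16 fell with etoposide (41.7%, beside 35% of all tested genes, 20.1% higher and 14.9% lower). Of 14 related mismatch genes 8 fell, led by POLD1, the catalytic subunit of polymerase delta (-1.25, SE 0.19, adjusted p 3.92e-06), and RFC2, a clamp loader subunit (-1.19, SE 0.14, adjusted p 2.78e-08), and 1 rose, PCNA, the sliding clamp (0.63, SE 0.12, adjusted p 6.64e-05). Of 13 related base excision genes 6 fell, led by NEIL3, a glycosylase (-1.18, SE 0.33, adjusted p 0.00466), and TDP1, which removes protein adducts from DNA ends (-0.90, SE 0.09, adjusted p 7.08e-10). Of 25 related nucleotide excision genes 4 rose and 4 fell. XPC and DDB2, both damage recognition factors and known p53 targets, rose by 1.0 (SE 0.14, adjusted p 9.92e-07) and 0.83 (SE 0.16, adjusted p 8.33e-05). POLE, the catalytic subunit of polymerase epsilon, fell by 1.41 (SE 0.17, adjusted p 8.87e-08).

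Of 14 related end joining genes 5 rose and 3 fell in WT. IFFO1 rose by 1.99 (SE 0.20, adjusted p 2.07e-09) and KLHL15 by 1.51 (SE 0.28, adjusted p 4.8e-05). PAXX, a paralog of XLF, fell by 0.93 (SE 0.16, adjusted p 1.46e-05) and MAD2L2, the REV7 subunit of shieldin and polymerase zeta, by 0.91 (SE 0.17, adjusted p 6.01e-05). Of 14 related translesion genes 4 rose and 1 fell. POLH, polymerase eta, rose by 0.92 (SE 0.08, adjusted p 5.29e-11), and SPRTN, a protease for DNA-protein crosslinks, by 0.76 (SE 0.19, adjusted p 0.00135).

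Against WT with etoposide, 21 of the 72 related genes were higher in KO and 4 lower (34.7%, beside 26.7% of all tested genes, 11.7% higher and 15% lower). Of the 14 mismatch-related genes 11 were higher and 0 lower, with a median of 0.92, led by the clamp loader subunits RFC4 (1.80, SE 0.13, adjusted p 4e-12) and RFC5 (1.49, SE 0.09, adjusted p 5.41e-14). In the base excision list NEIL3 (2.01, SE 0.33, adjusted p 1.55e-05) and HMGB1 (1.57, SE 0.21, adjusted p 6.91e-07) were higher. In the nucleotide excision list POLE (1.05) and RPA2 (0.94) were higher, and DDB2 (-2.11, SE 0.16, adjusted p 7.85e-12) and XPC (-1.27, SE 0.14, adjusted p 1.95e-08) were lower. PRIMPOL (1.33), USP1 (1.27), APLF (0.80) and MAD2L2 (0.60) were higher in the end joining and translesion lists, and POLH (-1.29, SE 0.08, adjusted p 6.22e-14) and IFFO1 (-0.63) were lower.

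In HOM against WT with etoposide 20 related genes were higher and 4 lower (33.3%, beside 28.6% of all tested genes), with 10 of the 14 mismatch-related genes higher. In HOM against KO 1 was higher and 2 lower (4.17%, beside 12.1%). The KO and WT responses differed upward in 15 related genes and downward in 4 (26.4%, beside 15.2% of all tested genes, 7.11% upward and 8.13% downward). RFC4 (1.48, SE 0.18, adjusted p 6.34e-07), RFC3 (1.38, SE 0.28, adjusted p 0.000507), FEN1, the flap endonuclease (1.57, SE 0.16, adjusted p 2.13e-08), and NEIL3 (1.57, SE 0.47, adjusted p 0.0182) were among the first. POLE (1.02), RPA2 (0.87), RAD18 (1.06), MAD2L2 (0.77) and PAXX (0.63) were also among them. IFFO1 (-1.17, SE 0.28, adjusted p 0.00323), DDB2 (-1.02, SE 0.22, adjusted p 0.00138), POLH (-0.93, SE 0.11, adjusted p 2.23e-07) and XPC (-0.77, SE 0.20, adjusted p 0.00603) made up the 4 downward. The KO and HOM comparisons share the WT etoposide libraries, and the response differences share the WT libraries, so these counts are not independent of each other.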

How the data were processed

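Poly-A RNA of U2OS cells was sequenced in 32 libraries, 4 per group, and grouped by the labels. Per the submitters' processing notes, kallisto, DESeq2 and GRCh38 were used; no versions are stated there. The matrix the authors deposited holds values that are, by their distribution, log2-like and variance-stabilized, which were inverted to normalized counts; the result matched the deposited mean column, a signal on the normalized scale, and gave whole counts within 0.01 in 100.0% of values. The authors also deposited tables with log2 fold changes, a test score and p-values, used as an alternative only. The 44 genes, the related genes and all tests were chosen with earlier results of these data known.

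The 16824 genes reaching 10 normalized counts in 4 or more libraries entered the test with limma 3.58.1 (R 4.3.3; trend) on log2(normalized count + 1), with 8 group means and 1 shared spread, and Benjamini-Hochberg adjustment over all of them. Calls needed a 1.5-fold difference and an adjusted p below 0.05. Fold changes are on that log2 scale, which understates changes of low genes. Genes named in a comparison are up to 5 called genes of largest change in each direction with a mean of at least 50 normalized counts in 1 of the groups, with others added where another result turns on them. Depth of 8.05 to 24.19 M counts puts 3 counts at 2.301 to 6.371 normalized counts. Alternatives were scaling, filter, pseudocount, array weights, removal of a G+C and length trend, replicate number as a block, and leaving out libraries. The alternative that removes the G+C and length trend was chosen after seeing the data, and HOM DMSO replicates 2 to 4 were left out because earlier results showed them apart. Positions and lengths are from GENCODE release 29, promoters from RefSeq. The procedure was tested on simulated data for the WT response alone. The simulation took its spread without HOM with DMSO and held no G+C trend, so it cannot speak for comparisons that use that group. Same-numbered libraries did not deviate together, so the numbers were not taken as pairs.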

Additional observations from a re-analysis of the deposited data

Results flagged for a closer look

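In 12 of 352 sets of 4 libraries (44 genes in 8 groups), 1 library lay far from the other 3 by Dixon's criterion, which chance meets in about 1 in 20 sets. The 12 sets are fewer than 1 in 20, so the values below are a description only. In replicate 3 of WT with DMSO, LIG4 stood at 11.59 normalized counts against 64.81 to 71.67, and REV3L at 40.55 against 164.4 to 189.4. In replicate 1 of HOM with DMSO, LIG4 stood at 50.32 against 8.761 to 14.87, and PMS1 at 111.1 against 48.85 to 52.57. In replicate 2 of WT with etoposide, TDG stood at 703.4 against 555.6 to 574.4 and REV3L at 355.2 against 290.6 to 300.7. APTX, which removes AMP from abortive ligation ends, stood at 478.5 in replicate 1 of KO with etoposide against 524.4 to 532.2, and at 682.7 in replicate 2 of HET with DMSO against 543.4 to 561.7. The others were APEX1 at 6202 in replicate 2 of KO with DMSO against 5827 to 5856, MSH3 at 275.2 in replicate 2 of WT with DMSO against 216.4 to 224.0, PMS1 at 70.16 in replicate 4 of KO with DMSO against 114.0 to 114.9, and REV3L at 380.5 in replicate 4 of HET with etoposide against 342.1 to 346.5.

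The etoposide response differed between genotypes, by a test of the difference itself, in 26 named results. In KO less WT these were UNG (1.24), PARP2 (1.04), MSH6 (0.95), PARP1 (0.67), OGG1 (0.59) and POLL (-0.74). In HOM less WT, with all 4 HOM DMSO libraries, they were upward POLQ (2.30, SE 0.38, adjusted p 1.88e-05), MSH6 (1.97, SE 0.3, adjusted p 5.56e-06), RIF1 (1.80, SE 0.67, adjusted p 0.023), ERCC8 (1.49, SE 0.32, adjusted p 0.00038) and POLI (1.49, SE 0.6, adjusted p 0.0365). With replicate 1 as the only HOM DMSO library these stood at 1.25, 1.08, 0.23, 0.45 and -0.02. Downward they were ERCC1 (-1.62, SE 0.26, adjusted p 1.45e-05), POLL (-1.62, SE 0.25, adjusted p 6.42e-06), MGMT (-1.52, SE 0.25, adjusted p 2.05e-05), ERCC2 (-1.26, SE 0.26, adjusted p 0.000273) and POLM (-0.95, SE 0.24, adjusted p 0.00178), and with that replicate alone -0.74, -0.94, -0.76, -0.59 and -0.29.

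In HOM less KO the upward differences were RIF1 (2.19, SE 0.67, adjusted p 0.00972), POLI (2.0, SE 0.6, adjusted p 0.00909), POLK (1.72, SE 0.59, adjusted p 0.0187), LIG4 (1.55, SE 0.58, adjusted p 0.027) and REV3L (1.51, SE 0.47, adjusted p 0.0105). With replicate 1 as the only HOM DMSO library they stood at 0.62, 0.49, 0.19, 0.07 and 0.61. The downward differences were ERCC1 (-1.25, SE 0.26, adjusted p 0.0014), XRCC1 (-1.12, SE 0.25, adjusted p 0.00194), NTHL1 (-1.06, SE 0.27, adjusted p 0.004), ERCC2 (-0.99, SE 0.26, adjusted p 0.00458) and MGMT (-0.91, SE 0.25, adjusted p 0.00573), and with that replicate alone -0.36, -0.27, -0.28, -0.32 and -0.15. None of these 10 passed with that replicate alone. The 3 HOM DMSO libraries with a high mitochondrial share and G+C trend enter every HOM difference. With the G+C and length trend removed, ERCC8 (0.33), POLI (0.39) and POLM (-0.33) were no longer called in HOM less WT. In HOM less KO, POLI (0.79), POLK (0.39), LIG4 (0.32), REV3L (0.56), NTHL1 (-0.32), ERCC2 (-0.52) and MGMT (-0.41) were no longer called.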

How the results depend on the processing

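The number of the 44 genes called moved by over 1.5 times under these settings. Total-count scaling gave 3 in place of 10 for the HET response and 2 in place of 1 for HOM against KO with etoposide; quantile normalization gave 2 for the latter and 19 in place of 29 for HOM against WT with DMSO. With replicate 1 as the only HOM DMSO library, 13 in place of 33 genes were called for the HOM response, 2 in place of 29 and 4 in place of 32 for HOM against WT and KO with DMSO, and 8 in place of 28 and 0 in place of 29 for the HOM response against the WT and KO responses. There POLI and LIG4 turned from lower to 0.15 and 0.19 in HOM against WT with DMSO, and POLI to -0.02 in the HOM less WT response. With the G+C and length trend removed, the counts were 16 for the HOM response, 6 in place of 15 for HET against WT with DMSO, 9 and 14 for HOM against WT and KO with DMSO, 2 in place of 7 for HET against WT with etoposide, 11 in place of 6 for KO less WT, 1 in place of 0 for HET less WT, 12 for HOM less WT and 8 for HOM less KO. Array weights gave 2 in place of 1 for KO against WT with DMSO, 11 in place of 7 for HET against WT with etoposide, 11 for KO less WT and 1 for HET less WT. The deposited log2-like values gave 0 for KO against WT with DMSO. A fit on the compared groups alone gave 3 for HOM against WT and 20 for HOM against KO with DMSO, and 2 for HET less WT. The cause of these shifts was not tested. Shares of all tested coding genes with the G+C trend removed were, in the order above, 51.3%, 22.2%, 21.9%, 26.9%, 17.3%, 19.3%, 7.79%, 33.9% and 19.5%.

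Leaving out 1 library at a time gave 18 to 20 calls for the WT response, 6 to 8 for KO, 10 to 13 for HET and 31 to 34 for HOM. With DMSO it gave 0 to 2 for KO, 12 to 17 for HET and 20 to 32 for HOM against WT, and 27 to 34 for HOM against KO. With etoposide it gave 9 to 11, 6 to 9 and 10 to 12 against WT, and 1 to 2 for HOM against KO. Response differences gave 4 to 7 for KO less WT, 0 to 1 for HET less WT, 24 to 34 for HOM less WT and 25 to 35 for HOM less KO.

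With the replicate number as a block, HET against WT with DMSO had 14 calls in place of 15 and no other count moved; the numbers do not pair the samples.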
